A study of Homo sapiens with 12 samples.

Results

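Expression of EGFR, MET, ERBB3, NGFR and SOX2 was followed in Hs695T, an established human melanoma cell line, after BRAF and MEK inhibition, histone deacetylase inhibition or both. The genes were chosen by symbol: each was named by 1 probe set of the deposited table, so that they make up 5 of the 14599 genes with a named probe set. Every culture was treated for 24 hours. The DT group received 100 nM dabrafenib, a BRAF inhibitor, with 10 nM trametinib, a MEK inhibitor. The E group received 1 µM entinostat, which blocks class I histone deacetylases. The DTE group received all 3 agents at those doses, and the DMSO group received vehicle. Each group had 3 arrays, and all cells came from 1 line. By title the 3 arrays are biological replicates, but the design text speaks of technical triplicates, so p-values cover only the spread between these arrays. Precision is limited by this number of arrays.

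EGFR, MET and ERBB3 are receptor tyrosine kinases. EGFR binds EGF-family ligands, MET binds hepatocyte growth factor, and ERBB3 binds neuregulins and, having a weak kinase of its own, signals with a partner receptor. NGFR, the p75 neurotrophin receptor or CD271, marks neural crest cells and dedifferentiated melanoma cells, and SOX2 is a transcription factor of pluripotent and neural progenitor cells. Melanocytes derive from the neural crest. Receptors of this kind can feed the RAS and PI3K pathways when BRAF is blocked, and raised EGFR, MET, ERBB3 or NGFR has been linked in melanoma to poor response to BRAF and MEK inhibitors.

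In the RefSeq annotation of GRCh38.p14, used for names and positions only, EGFR spans chr7:55019017-55211628, MET chr7:116672196-116798377, ERBB3 chr12:56080108-56103505, NGFR chr17:49495293-49515008 and SOX2 chr3:181711925-181714436. The RefSeq promoter table held EGFR, MET and SOX2, 3 genes that moved the same way with entinostat. The 250 bases before each annotated start are shown, 5′ to 3′ on the plus strand, to set the 3 upstream regions side by side. Capitals mark matches, on either strand, to the GC box GGGCGG and to a SOX-type word, ACAAAG.
EGFR, chr7:55018767-55019016: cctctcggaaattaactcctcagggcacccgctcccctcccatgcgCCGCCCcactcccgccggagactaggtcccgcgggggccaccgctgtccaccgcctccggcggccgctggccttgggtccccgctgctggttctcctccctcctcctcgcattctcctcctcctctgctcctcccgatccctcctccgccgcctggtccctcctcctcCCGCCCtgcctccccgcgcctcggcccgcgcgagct
MET, chr7:116671946-116672195: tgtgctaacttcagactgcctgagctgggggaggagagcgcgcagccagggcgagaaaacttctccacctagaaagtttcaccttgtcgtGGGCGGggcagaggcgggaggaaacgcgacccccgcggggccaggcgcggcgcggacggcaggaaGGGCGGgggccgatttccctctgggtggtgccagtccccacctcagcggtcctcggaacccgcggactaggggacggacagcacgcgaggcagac
SOX2, chr3:181711675-181711924: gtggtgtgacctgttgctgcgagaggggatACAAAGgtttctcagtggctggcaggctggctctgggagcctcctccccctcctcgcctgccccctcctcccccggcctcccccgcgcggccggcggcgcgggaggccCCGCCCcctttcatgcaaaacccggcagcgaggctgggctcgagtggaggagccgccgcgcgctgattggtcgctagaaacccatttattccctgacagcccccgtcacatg
These regions were GC-rich, with 73.6% G or C for EGFR, 68.4% for MET and 68.8% for SOX2. They held 25, 24 and 20 CG pairs in the same order, and the median over 27305 RefSeq promoters was 11. Fewer CG pairs were found in 78.7%, 76.7% and 67.9% of promoters, so such counts are common. The GC box occurred at 2 places for EGFR, at 2 for MET and at 1 for SOX2, and 42.3% of all promoters held it. ACAAAG occurred 1 time, for SOX2, and in 13.7% of all promoters. Neither TGANTCA, the AP-1 motif (6.596% of promoters), nor CCGGAAG, an ETS motif (8.82%), was found in the 3 windows. The matches are descriptions of letters and not of binding.

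The deposited values are linear probe set intensities, and differences are given on the log2 scale, ± the limma standard error. Signal fell over most of the array in the treated groups. The median intensity per array was 37.5 to 40.8 with DT, 48.3 to 51.6 with E, 33.3 to 39.9 with DTE and 50.6 to 57.6 with DMSO. The median log2 difference over all genes was -0.48 for DT minus DMSO, -0.20 for E minus DMSO and -0.72 for DTE minus DMSO. Differences that passed are therefore also given after quantile normalization ("quantile"), which leaves medians of 0.01, -0.04 and -0.03. How the arrays were scaled by the authors is not stated, so neither scale can be preferred. A gene passed at a limma p under 0.05 after Benjamini-Hochberg adjustment over 14599 genes within the comparison, called adjusted p from here on.

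Melanocyte lineage genes were checked first. Among 9 measured markers, S100B, SOX10 and PAX3 were bright, with mean log2 intensities of 10.54, 9.31 and 8.13. PMEL, MITF and EDNRB lay near the middle at 6.13, 5.80 and 5.90, and 51.8%, 44.8% and 46.9% of genes were dimmer. MLANA, TYR and TYRP1, which like PMEL mark pigmented cells, were dim in all groups at 4.04, 3.66 and 3.39. For them 14.01%, 9.85% and 7.51% of genes were dimmer. Of markers of other cells, DCN and LUM, the 2 measured fibroblast markers, had means of 2.72 and 2.72, and the 5 measured keratinocyte markers had means of 4.05 to 5.48. CD68, the 1 measured immune marker, was bright, with a mean of 8.26 and 88.4% of genes dimmer. Against DMSO, 2 of the 5 keratinocyte markers rose with DT and 2 fell, 1 fell with E, and 3 fell with DTE. After quantile normalization 2 rose and 0 fell with DT, 1 fell with E, and 1 rose and 0 fell with DTE. CD68 fell with DT (-0.87 ± 0.12) and with DTE (-0.44 ± 0.12) and did not pass with E (0.14 ± 0.12), and its quantile values were -0.06, 0.85 and 0.54 in that order. Of the 9 melanocyte markers, 0 rose and 5 fell with DT, 2 rose and 3 fell with E, and 0 rose and 5 fell with DTE. After quantile normalization 2 rose and 2 fell with DT, 3 rose and 2 fell with E, and 2 rose and 2 fell with DTE. For each of these lists and those that follow, the shares of all genes that rose and fell on the deposited scale were 2.97% and 66.2% with DT, 10.4% and 37.2% with E, and 4.38% and 74.3% with DTE. Quantile counts stand against another background. Of all 14599 genes, 2205 rose and 2028 fell with DT on that scale, 2696 and 3082 with E, and 3225 and 3530 with DTE. The 2 melanocyte markers that rose with E were PMEL (1.07 ± 0.14, quantile 1.22) and EDNRB (1.07 ± 0.12, quantile 1.19), a pigment granule protein and an endothelin receptor. The 3 that fell with E were SOX10 (-1.09 ± 0.12, quantile -0.74), S100B (-0.57 ± 0.10, quantile -0.32) and MLANA (-0.36 ± 0.11, quantile -0.31). The quantile value of MLANA did not pass. MITF did not pass with E (-0.30 ± 0.13) and fell with DTE (-0.97 ± 0.13, quantile -0.34). With DT, MITF did not pass as deposited (0.12 ± 0.13) and rose after quantile normalization (0.61). DCN and LUM passed in none of the 3 comparisons, with adjusted p = 0.0593 the lowest. The part of these shifts in the results on the 5 genes was not tested.

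**Figure D1:**
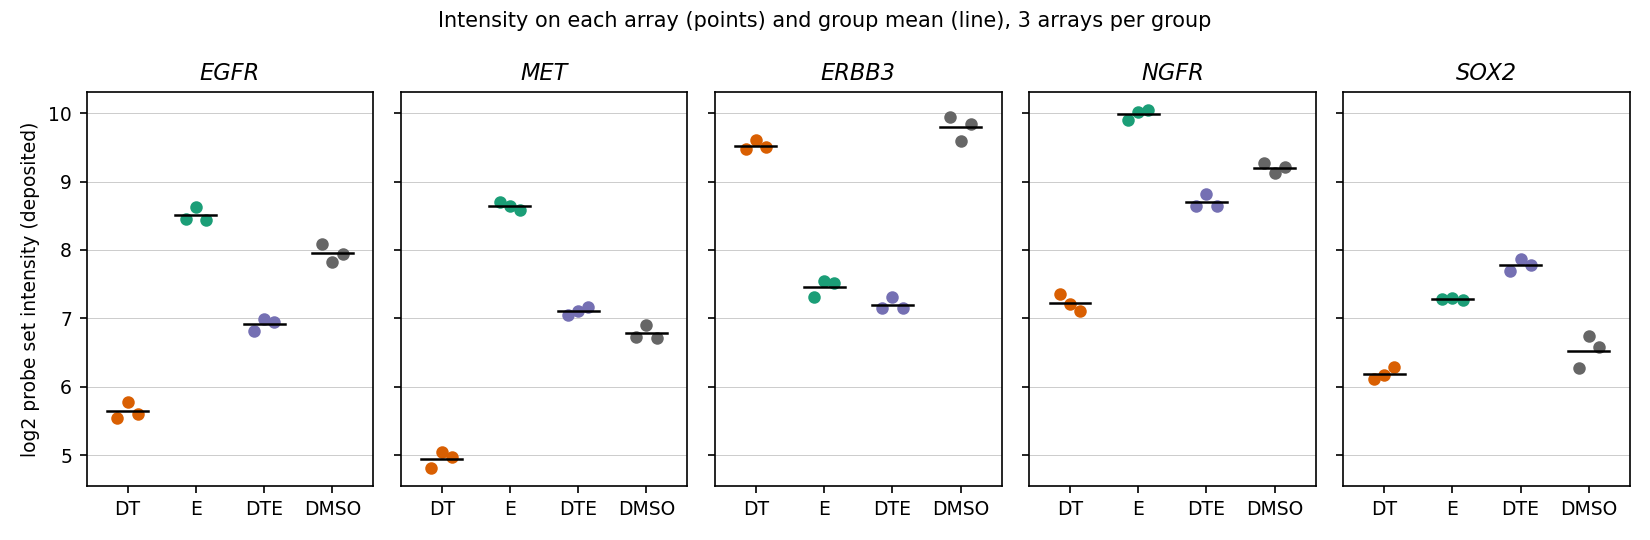
Log2 probe set intensity of the 5 genes on each of 12 arrays (points, 3 per group) with the group mean (line), for DT, E, DTE and DMSO. EGFR, MET and NGFR were lowest with DT and highest with E, ERBB3 was low wherever entinostat was given, and SOX2 was highest with DTE.

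EGFR lost most of its signal under BRAF and MEK inhibition and gained some under entinostat. Its intensity was 46.6, 54.7 and 48.8 on the DT arrays, 350.8, 396.7 and 346.0 on the E arrays, 112.7, 127.8 and 123.3 on the DTE arrays and 272.0, 226.3 and 245.6 on the DMSO arrays. The 4 groups did not overlap, and their order was DT, DTE, DMSO, E. EGFR was 4.95-fold lower with DT than with DMSO (-2.31 ± 0.11, adjusted p = 9.26e-11, quantile -1.54). It was 1.47-fold higher with E than with DMSO (0.56 ± 0.11, adjusted p = 0.000483, quantile 0.94). With DTE it was 2.43-fold higher than with DT (1.28 ± 0.11, adjusted p = 1.72e-07, quantile 1.77). DTE arrays lay below DMSO arrays as deposited (-1.03 ± 0.11, adjusted p = 2.53e-07) but slightly above them after quantile normalization (0.23, adjusted p = 0.0380). EGFR-AS1, a long non-coding RNA that overlaps EGFR, had an intensity of 9.07 to 17.6 over all groups and passed in none of the 3 comparisons with DMSO on either scale. These intensities lay below the array medians of 33.3 to 57.6, so their background share is unknown.

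MET showed the widest range. It gave 28.2, 33.003 and 31.5 on the DT arrays, 415.1, 399.1 and 383.4 on the E arrays, 132.9, 137.4 and 143.6 on the DTE arrays and 106.1, 120.0 and 105.0 on the DMSO arrays. No 2 groups overlapped, and the order was DT, DMSO, DTE, E. MET was 3.58-fold lower with DT than with DMSO (-1.84 ± 0.10, adjusted p = 4.91e-10, quantile -1.23). On the dimmest DT array 39.0% of all rows of the table lay below it, so its DT value stood below the middle of the array. Entinostat went with a 3.62-fold rise over DMSO (1.86 ± 0.10, adjusted p = 2.05e-09, quantile 2.08). DT lay 12.9-fold below E (-3.69 ± 0.10, adjusted p = 3.27e-13, quantile -3.31).

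With all 3 agents MET ended above vehicle. DTE was 4.48-fold higher than DT (2.16 ± 0.10, adjusted p = 8.25e-10, quantile 2.67), and 99.9% of genes had a lower difference in that comparison. Against DMSO the DTE arrays were 1.25-fold higher (0.32 ± 0.10, adjusted p = 0.00819), and 2.72-fold higher after quantile normalization (1.44, adjusted p = 2.68e-07). MET on DTE arrays was still 2.89-fold lower than on E arrays (-1.53 ± 0.10, adjusted p = 1.00e-08, quantile -0.64).

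ERBB3 went the other way: it was lower wherever entinostat was given, alone or with the kinase inhibitors. ERBB3 read 711.2, 776.5 and 724.6 on the DT arrays, 159.6, 186.7 and 182.6 on the E arrays, 141.8, 158.3 and 141.6 on the DTE arrays and 990.2, 775.1 and 919.8 on the DMSO arrays. All arrays with entinostat lay below all arrays without it, and the order was DTE, E, DT, DMSO. ERBB3 was 5.06-fold lower with E than with DMSO (-2.34 ± 0.11, adjusted p = 7.36e-10, quantile -1.95), and 0.0411% of genes had a lower difference. It was 5.01-fold lower with DTE than with DT (-2.33 ± 0.11, adjusted p = 1.23e-09, quantile -1.84). With DTE it was 6.06-fold lower than with DMSO (-2.60 ± 0.11, adjusted p = 1.91e-11, quantile -1.34).

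The sign and rank of the ERBB3 difference with the kinase inhibitors depended on the scale. As deposited, 70.4% of genes had a lower difference for DT minus DMSO and 78.6% for DTE minus E. After quantile normalization these shares were 93.0% and 97.8%. DT and DMSO arrays overlapped, and the difference of -0.27 ± 0.11 passed narrowly as deposited (adjusted p = 0.0413) and was 0.50 after quantile normalization (adjusted p = 0.000283) and 0.28 after median subtraction (adjusted p = 0.0139). DTE and E arrays did not overlap, the difference being -0.26 ± 0.11 (adjusted p = 0.0494, quantile 0.61, median subtraction 0.34). Both deposited calls were lost with the replicate number as a block, with adjusted p = 0.0553 for DT minus DMSO and 0.0648 for DTE minus E. Without single arrays the deposited difference was -0.37 to -0.20 for DT minus DMSO, where it no longer passed without DT array 1 or 3, E array 3 or DMSO array 1 or 3. It was -0.33 to -0.22 for DTE minus E, where it no longer passed without any single DT array, E array 2 or 3, DTE array 1 or 3 or DMSO array 3.

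NGFR ran in the same order as EGFR. It was 163.5, 147.7 and 137.7 on the DT arrays, 955.7, 1039.4 and 1058.8 on the E arrays, 400.9, 449.9 and 398.2 on the DTE arrays and 618.3, 556.5 and 591.7 on the DMSO arrays. The groups did not overlap. NGFR was 3.94-fold lower with DT than with DMSO (-1.98 ± 0.10, adjusted p = 2.82e-10, quantile -1.17). It was 1.73-fold higher with E (0.79 ± 0.10, adjusted p = 1.09e-05, quantile 1.24). DTE was 2.78-fold higher than DT (1.48 ± 0.10, adjusted p = 2.85e-08, quantile 1.92). Against DMSO, DTE was lower as deposited (-0.50 ± 0.10, adjusted p = 0.000345) and higher after quantile normalization (0.75, adjusted p = 1.09e-06) and after median subtraction (0.30, adjusted p = 0.00186).

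SOX2 was the 1 gene of the 5 whose level was highest with the 3 agents together. It had 69.5, 72.0 and 77.9 on the DT arrays, 156.1, 157.0 and 154.1 on the E arrays, 207.8, 234.8 and 220.0 on the DTE arrays and 77.1, 107.3 and 95.5 on the DMSO arrays. DT and DMSO arrays overlapped, no other groups did, and the order was DT, DMSO, E, DTE. SOX2 was 1.68-fold higher with E than with DMSO (0.75 ± 0.12, adjusted p = 5.92e-05, quantile 0.97). It was 2.39-fold higher with DTE than with DMSO (1.25 ± 0.12, adjusted p = 5.44e-08, quantile 2.32) and 3.02-fold higher than with DT (1.59 ± 0.12, adjusted p = 4.30e-08, quantile 2.09). Adding the kinase inhibitors to entinostat also went with a rise (0.50 ± 0.12, adjusted p = 0.00125, quantile 1.35), and 99.7% of genes had a lower difference there.

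DT alone did not separate SOX2 from vehicle on both scales. DT minus DMSO was -0.34 ± 0.12 as deposited (adjusted p = 0.0176), 0.24 after quantile normalization (adjusted p = 0.203) and 0.21 after median subtraction (adjusted p = 0.234). The deposited difference no longer passed without DT array 1, DMSO array 2 or DMSO array 3, and was -0.47 to -0.23 over all leave-one-out fits. SOX2 lies inside the long non-coding RNA gene SOX2-OT, whose own probe set read 11.4 to 20.8 over all groups. That range too lay below the array medians, so its background share is unknown. SOX2-OT did not pass with E (-0.12 ± 0.14, adjusted p = 0.541). It was lower with DTE than with DMSO as deposited (-0.42 ± 0.14, adjusted p = 0.0138, all genes -0.72) and did not pass after quantile normalization (-0.19, adjusted p = 0.234).

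**Figure D2:**
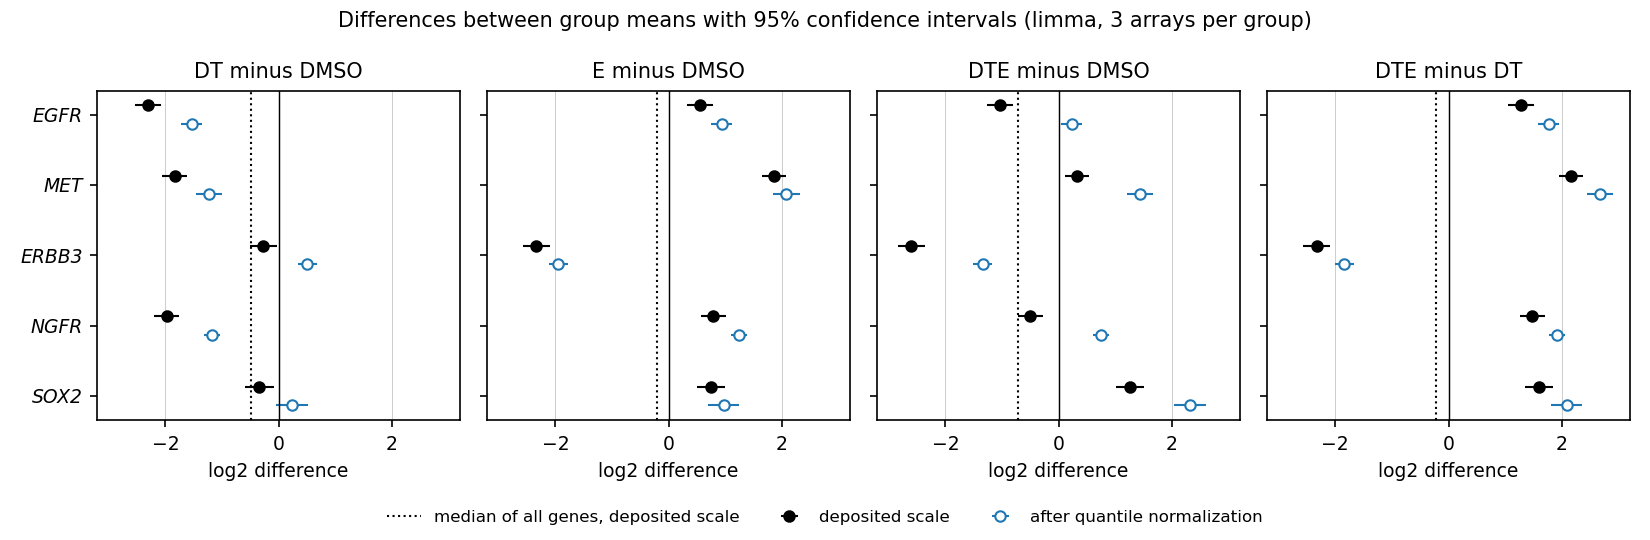
Log2 differences of the 5 genes with 95% confidence intervals from limma (3 arrays per group) for DT minus DMSO, E minus DMSO, DTE minus DMSO and DTE minus DT. Filled points are deposited values, open points are quantile-normalized values, and the dotted line is the deposited median of all genes. ERBB3 lies left of 0 on both scales in the 3 comparisons with entinostat, while MET and SOX2 lie right of 0 on both.

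Counted over the 5 genes, the comparisons differed in direction. With DT against DMSO, 0 rose and 5 fell, while 2.97% of all genes rose and 66.2% fell (434 and 9660 genes). After quantile normalization 3 fell, 1 rose and 1 did not pass, among 2205 genes higher and 2028 lower. With E, 4 rose and 1 fell, while 10.4% of all genes rose and 37.2% fell, and after quantile normalization the counts were again 4 and 1 among 2696 genes higher and 3082 lower. With DTE against DMSO, 2 rose and 3 fell (4.38% and 74.3% of all genes), against 4 and 1 after quantile normalization, among 3225 genes higher and 3530 lower. With DTE against DT, 4 rose and 1 fell (8.68% and 40.6% of all genes), and the quantile counts were the same, among 2898 genes higher and 3430 lower. With DTE against E, 1 rose and 4 fell (0.644% and 72.6% of all genes), against 2 and 3 after quantile normalization, among 1664 genes higher and 1700 lower. With DT against E, 1 was higher and 4 were lower (7.25% and 39.4% of all genes), on both scales, and after quantile normalization 3594 genes were higher and 2979 lower. These comparisons share arrays, and the 5 genes were chosen with earlier results known.

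The groups did not overlap for 3 of 5 genes between DT and DMSO, where 71.1% of all genes did not overlap. They did not overlap for 5 of 5 genes between E and DMSO (55.4% of all genes), between DTE and DMSO (76.8%), between DTE and DT (54%), between DTE and E (71.8%) and between DT and E (57.2%).

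The difference with entinostat was then compared between cells with and without the kinase inhibitors, as (DTE minus DT) minus (E minus DMSO). This interaction passed for 3 of the 5 genes, all with a positive sign, and for 0 with a negative one, while 3.16% of all genes passed with a positive and 4.84% with a negative sign. In EGFR the entinostat difference was 1.28 with the kinase inhibitors and 0.56 without them, an interaction of 0.72 ± 0.15 (adjusted p = 0.00725, quantile 0.83). In NGFR it was 1.48 with and 0.79 without them, an interaction of 0.69 ± 0.15 (adjusted p = 0.00686, quantile 0.68). In SOX2 it was 1.59 with and 0.75 without them, an interaction of 0.84 ± 0.17 (adjusted p = 0.00402, quantile 1.12). For MET the interaction of 0.31 ± 0.14 missed the threshold as deposited (adjusted p = 0.233) and passed once quantile-normalized (0.59, adjusted p = 0.0222). For ERBB3 it was 0.01 ± 0.16 (adjusted p = 0.977, quantile 0.11), with a 95% interval of -0.32 to 0.35. These 3 calls held in every fit without a single array and under quantile normalization and median subtraction. Genes of like mean intensity (the same of 10 intensity bins) had a median interaction of -0.06 for EGFR, -0.06 for NGFR and -0.03 for SOX2. EGFR, MET, NGFR and SOX2 were dimmest on the DT arrays that enter this term, and the part of their low signal there was not tested.

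**Figure D3:**
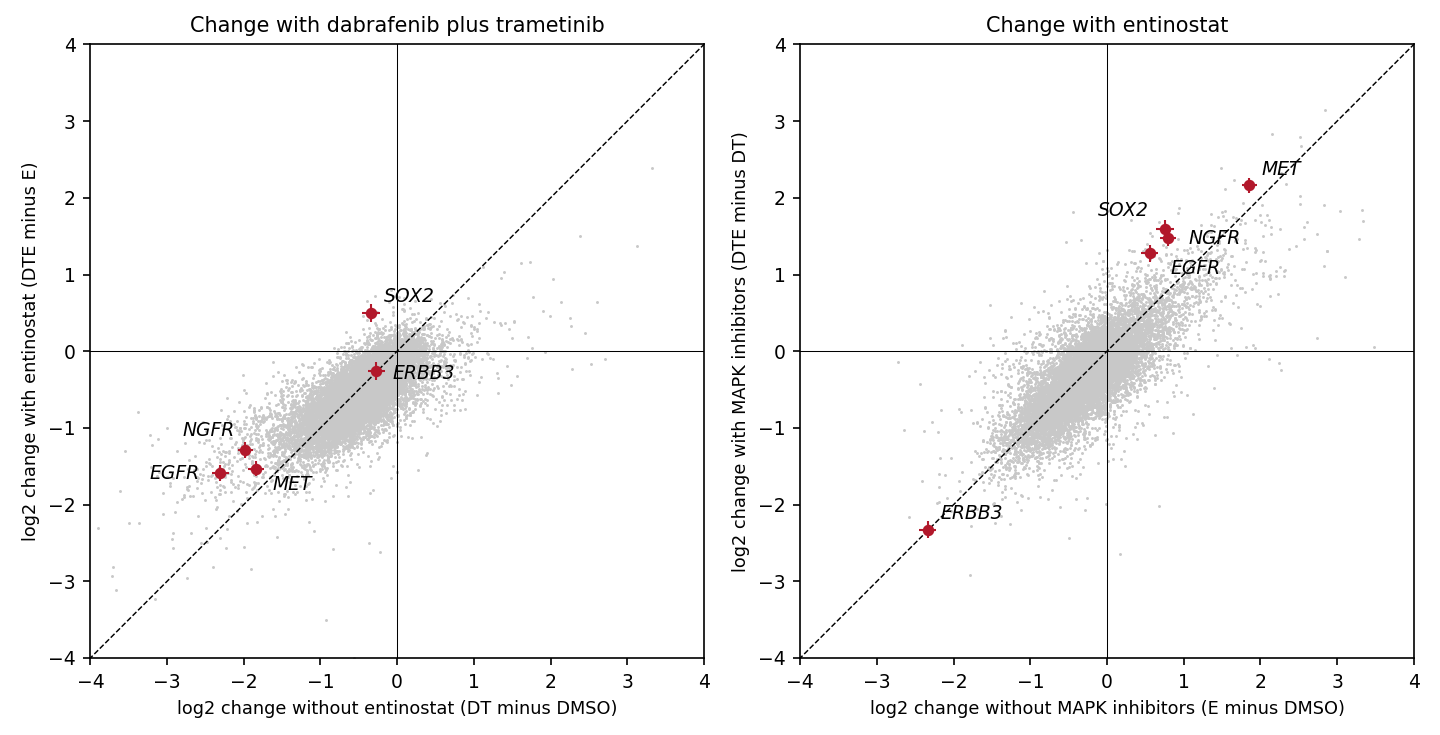
Each point is a gene: left, the log2 difference with dabrafenib plus trametinib without entinostat (x) and with it (y), and right, the log2 difference with entinostat without the kinase inhibitors (x) and with them (y), on the deposited scale. The 5 genes are red with limma standard errors, all others grey, and the dashed line marks equal differences. 10 genes lie outside the axes on the left and 1 on the right. EGFR, NGFR and SOX2 lie above the dashed line in both panels and ERBB3 lies on it.

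Among the other ERBB receptors, ERBB4, which like ERBB3 binds neuregulins, was measured. It read 55.9, 52.5 and 49.2 on the DT arrays, 144.5, 148.8 and 110.3 on the E arrays, 99.2, 106.9 and 105.0 on the DTE arrays and 44.8, 22.8 and 23.9 on the DMSO arrays. ERBB4 thus rose with entinostat, opposite to ERBB3: E minus DMSO was 2.199 ± 0.20 (adjusted p = 2.45e-07, quantile 2.205) and DTE minus DMSO 1.84 ± 0.20 (adjusted p = 2.70e-07, quantile 2.65). With DT it was 0.85 ± 0.20 (adjusted p = 0.00118, quantile 1.21), and 1 of the 3 DMSO arrays lay near the DT arrays. ERBB2 was not analysed here.

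Of 9 measured ERBB ligand genes, 0 rose and 6 fell with DT (median -0.42, all genes -0.48), and 2 fell and 0 rose after quantile normalization. With E, 2 rose and 0 fell (median 0.22, all genes -0.20), and 2 rose and 1 fell after quantile normalization. With DTE, 1 rose and 5 fell (median -0.34, all genes -0.72), and 3 rose and 1 fell after quantile normalization. HBEGF, which encodes an EGFR ligand, rose with E (1.61 ± 0.15, adjusted p = 3.33e-07, quantile 1.69) and with DTE (0.50 ± 0.15, adjusted p = 0.00621, quantile 1.30). NRG3, which encodes a neuregulin that binds ERBB4, rose with E (0.84 ± 0.13, quantile 0.85). NRG1, the neuregulin gene best known as an ERBB3 ligand, fell with DT (-0.90 ± 0.12, quantile -0.45) and with DTE (-0.93 ± 0.12, quantile -0.39) and did not pass with E (0.08 ± 0.12, adjusted p = 0.613). BTC and NRG2 fell with DT (-0.84 ± 0.14 and -1.09 ± 0.13) with quantile values of -0.39 and -0.42, of which that of BTC did not pass. EGF and EREG were dim, with 26.4% and 7.61% of genes dimmer, and TGFA and AREG were not analysed here.

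For MET, the ligand gene HGF was at the dim end of every array, with intensities of 6.95 to 9.26 on DT arrays, 8.14 to 9.27 on E arrays, 8.22 to 9.39 on DTE arrays and 6.88 to 8.81 on DMSO arrays. It passed in none of the 3 comparisons with DMSO (0.03 ± 0.13, 0.19 ± 0.13 and 0.19 ± 0.13). Of the 7 measured genes of the MET ligand and activation list, 0 rose in any of them, and 4 fell with DT, 1 with E and 5 with DTE. Their medians of -0.40, -0.15 and -0.44 stood beside -0.48, -0.20 and -0.72 for all genes. After quantile normalization 2 rose and 0 fell with DT, 0 passed with E, and 2 rose and 1 fell with DTE. MST1R, the receptor gene most like MET, fell in all 3 (-0.60 ± 0.11 with DT, -0.31 ± 0.11 with E and -0.87 ± 0.11 with DTE), and its quantile values were -0.15, -0.19 and -0.32 in that order, of which that with DTE passed.

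Of 13 measured adaptors and negative regulators of these receptors, 11 fell and 2 rose with DT, where 66.2% of all genes fell (median -0.81, all genes -0.48), and 5 fell and 2 rose after quantile normalization. With E, 9 fell and 0 rose (median -0.37, all genes -0.20), and 3 fell and 2 rose after quantile normalization. With DTE, 13 fell, where 74.3% of all genes fell (median -1.39, all genes -0.72), and 6 fell and 2 rose after quantile normalization. LRIG1 and LRIG3 belong to a family of membrane proteins of which LRIG1 promotes the turnover of EGFR-family receptors. LRIG1 fell with DT (-1.89 ± 0.13, quantile -1.10) and DTE (-1.70 ± 0.13, quantile -0.41), and LRIG3 fell with DT (-2.33 ± 0.12, quantile -1.54) and DTE (-2.28 ± 0.12, quantile -1.19). The adaptor genes SHC1 (-2.10 ± 0.11 with DT, quantile -1.39) and GAB2 (-1.71 ± 0.10 with DT, quantile -1.12) fell too. Both also fell with E (SHC1 -0.93 ± 0.11, quantile -0.59, and GAB2 -1.54 ± 0.10, quantile -1.28). The 2 genes of this list that rose with DT were GAB1 (0.84 ± 0.12, quantile 1.39) and SOS1. The mean log2 intensity of SOS1 was 10.03 with DT and 9.53 with DMSO.

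Of the NGFR ligands and partners, 8 were measured, and 7 fell with DT, 4 with E and 7 with DTE, with 0 rising (medians -0.59, -0.23 and -0.67, all genes -0.48, -0.20 and -0.72). After quantile normalization 1 rose and 1 fell with DT, 4 fell with E and 3 fell with DTE. BDNF, a neurotrophin gene, passed in none of the 3 (-0.24 ± 0.11, 0.21 ± 0.11 and -0.15 ± 0.11). NSMAF, an adaptor gene of TNF receptor signalling, fell with E (-1.54 ± 0.10, quantile -1.09) and DTE (-2.23 ± 0.10, quantile -1.07). SORT1 and the NTRK genes were not analysed here.

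Of 29 measured neural crest factors, 3 rose and 20 fell with DT (median -0.59, all genes -0.48), 5 rose and 10 fell with E (median -0.06, all genes -0.20), and 2 rose and 21 fell with DTE (median -0.50, all genes -0.72). Of all genes, 66.2% fell with DT, 10.4% rose and 37.2% fell with E, and 74.3% fell with DTE. After quantile normalization the counts were 7 and 9 with DT, 10 and 7 with E, and 12 and 6 with DTE. Of all 14599 genes, 2205 rose and 2028 fell with DT on that scale, 2696 and 3082 with E, and 3225 and 3530 with DTE. SOX9, a neural crest and glial transcription factor, rose with E (1.17 ± 0.13, adjusted p = 1.55e-06, quantile 1.49) and with DTE (0.36 ± 0.13, adjusted p = 0.0161, quantile 1.57). SOX10, which maintains the melanocyte lineage, fell with E (-1.09 ± 0.12, adjusted p = 1.32e-06, quantile -0.74). With DTE it fell as deposited (-1.16 ± 0.12) but not after quantile normalization (0.04, adjusted p = 0.733), and with DT it fell as deposited (-0.35 ± 0.12) and rose after quantile normalization (0.41). LMO4, a LIM-domain gene active in the neural crest, rose with E (0.50 ± 0.11, quantile 0.84) and fell with DT (-1.42 ± 0.11, quantile -0.71).

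FOXD3, a neural crest transcription factor reported to raise ERBB3 transcription in melanoma cells under BRAF inhibition, rose with DT. It read 119.3, 110.6 and 108.6 on the DT arrays, 26.9, 29.6 and 29.5 on the E arrays, 19.7, 37.0 and 26.7 on the DTE arrays and 32.0, 39.0 and 34.0 on the DMSO arrays. DT arrays lay above all others, while the other 3 groups were close. The difference from DMSO was 1.69 ± 0.17 with DT (adjusted p = 3.35e-07, quantile 2.07), -0.29 ± 0.17 with E (adjusted p = 0.177) and -0.38 ± 0.17 with DTE (adjusted p = 0.0504). DTE minus DT was -2.07 ± 0.17 (adjusted p = 1.00e-07, quantile -1.99). TFAP2C, which encodes an AP-2 factor (-3.61 ± 0.10, quantile -2.90), the water channel gene AQP1 (-2.49 ± 0.12, quantile -1.70) and NES, which encodes nestin (-2.05 ± 0.10, quantile -1.32), fell with DT. They also fell with DTE (-2.17 ± 0.10, -2.17 ± 0.12 and -2.67 ± 0.10, quantile -1.02, -1.04 and -1.47). With E, NES fell (-0.98 ± 0.10, quantile -0.63) and TFAP2C fell only as deposited (-0.35 ± 0.10, quantile -0.03). AQP1 rose with E only after quantile normalization (0.14 ± 0.12, quantile 0.54).

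Other receptor tyrosine kinases were mixed. Of 21 measured, 1 rose and 15 fell with DT, 4 rose and 5 fell with E, and 2 rose and 17 fell with DTE (medians -0.50, -0.08 and -0.67, all genes -0.48, -0.20 and -0.72). The 1 that rose with DT was FGFR2 (2.00 ± 0.10, quantile 2.49). FGFR2 also rose with E (0.40 ± 0.10, quantile 0.52) and with DTE (0.86 ± 0.10, quantile 1.80). After quantile normalization the counts were 6 and 6, 8 and 4, and 5 and 6. KDR, a receptor for vascular endothelial growth factor, fell with DT (-2.92 ± 0.12, quantile -2.13) and rose with E (0.79 ± 0.12, quantile 1.19), in the same directions as EGFR, MET and NGFR. With DTE, KDR fell on both scales (-1.77 ± 0.12, quantile -0.49), while the quantile values of EGFR, MET and NGFR were 0.23, 1.44 and 0.75. MERTK rose with E (1.99 ± 0.12, quantile 2.04) and with DTE (1.08 ± 0.12, quantile 1.91). EPHA2 fell with DT (-2.36 ± 0.13, quantile -1.57) and with DTE (-2.51 ± 0.13, quantile -1.47), and DDR2, a collagen receptor, fell with E (-1.40 ± 0.12, quantile -1.02).

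**Figure D4:**
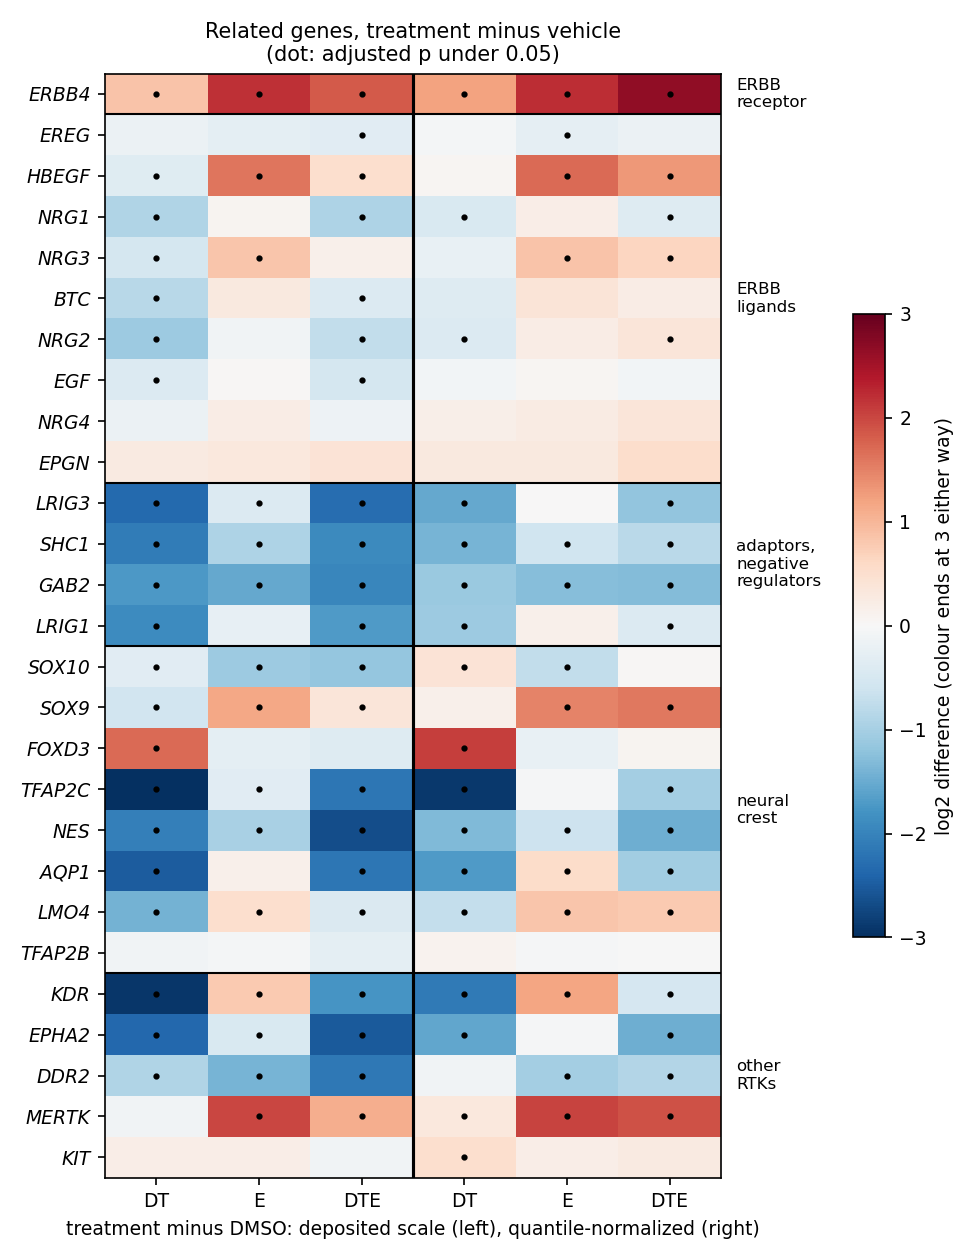
Log2 differences from DMSO for related genes picked by the naming rule, with DT, E and DTE on the deposited scale in the 3 left columns and after quantile normalization in the 3 right columns. Red is higher and blue lower than DMSO, dots mark an adjusted p under 0.05, and colour ends at 3 either way. ERBB4 is red in all 6 columns, and FOXD3 is red with DT.

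The genes most like each of the 5 were found by Pearson's r over the 12 arrays after quantile normalization, among 2027 genes whose group means spanned at least 1 on that log2 scale. These values describe the 4 group levels that all arrays share and carry no test. EGFR was closest to CEACAM1, NPTX2, P3H2 and OSBPL3 (r = 0.997, 0.997, 0.995 and 0.990). MET was closest to GRAMD1C, LMO7, HEY2 and PGM2L1 (r = 0.995, 0.995, 0.993 and 0.993). ERBB3 was closest to RPRD2, VPS35L, TNS3 and FMC1-LUC7L2 (r = 0.996, 0.992, 0.992 and 0.990). NGFR was closest to OSBPL6, NFE2L3, DSG2 and HID1 (r = 0.995, 0.995, 0.994 and 0.993), and SOX2 to ADA, TLL2, ZNF773 and KCTD19 (r = 0.984, 0.980, 0.977 and 0.976). On the deposited scale, with 6319 candidates, 2 of the 4 were again among the closest 4 for EGFR (CEACAM1 and P3H2), 1 for MET (GRAMD1C), 1 for ERBB3 (TNS3), 0 for NGFR and 2 for SOX2 (KCTD19 and TLL2).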

How the data were processed

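The authors summarised single-colour Affymetrix arrays by RMA (Transcriptome Analysis Console), per the submitters' processing notes. Versions, build and between-array scaling were not given in the sources used here. Each deposited value is a linear probe set intensity, of which the log2 was taken. Of 29592 rows, 14783 were named by 1 symbol in the platform annotation, giving 14599 genes; 169 genes had over 1 row, and the brightest was used. Per the labels' protocols, ERCC spike-ins were added ahead of extraction; nothing says if they served for scaling.

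Group means over all 12 arrays were compared with limma 3.58.1 under R 4.3.3 (linear model with empirical Bayes variance; 8 residual and 7.68 prior degrees of freedom), in 7 comparisons, with Benjamini-Hochberg adjustment over all genes within each comparison. The script was tested on simulated data. Members, lists and tests were chosen with earlier results of these data known. Named were the 5 genes, a fixed set of related genes, and per list up to 4 with the largest range of group means and up to 2 bright genes that did not pass; not every gene the rule allows is printed. EGFR-AS1 and SOX2-OT were added after their values were seen, as overlapping genes. FGFR2, GAB1 and SOS1 were also added after their values were seen, as the genes of their lists that rose with DT. Alternatives covered scaling, dim genes, variance prior, probe sets, arrays in the fit, the replicate number and single arrays. Plots were made in Python 3.11.15 (matplotlib 3.10.9).

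Arrays of different groups that share a replicate number had a median r of 0.03 between their deviations from group means (-0.106 to 0.121). Arrays with other numbers had a median r of -0.01 (-0.118 to 0.072). Of 12 arrays, 7 correlated best with an array of their own number. The arrays were not treated as paired in the main fit, and the replicate number was used as a block in an alternative.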

Additional observations from a re-analysis of the deposited data

Results flagged for a closer look

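The difference with entinostat was not the same with and without dabrafenib and trametinib in 3 of the 5 genes, by limma's interaction term. Of all genes, 3.16% passed with a positive sign and 4.84% with a negative one. The entinostat difference was larger with the kinase inhibitors by 0.72 on the log2 scale in EGFR (adjusted p = 0.00725), by 0.69 in NGFR (adjusted p = 0.00686) and by 0.84 in SOX2 (adjusted p = 0.00402). For each of these 3 genes, all 3 DTE arrays lay above all 3 DT arrays, and all 3 E arrays above all 3 DMSO arrays. Of all genes, 54% did not overlap in either direction between DTE and DT, and 55.4% between E and DMSO. Such separation does not show whether the entinostat difference changed with the kinase inhibitors.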

How the results depend on the processing

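Over the 5 genes and 7 comparisons, 665 of 700 refitted values kept their direction and side of the threshold. Of the rest, 20 no longer passed, 1 newly passed (MET, interaction, quantile normalization) and 14 changed sign. Many of these refits could not move a difference, so the count is no measure of robustness. Each gene had 1 probe set, and leaving out an array of a group not compared did not alter a difference. The replicate block did not alter it either. Sign changes under quantile normalization were ERBB3 (0.50) and SOX2 (0.24) for DT minus DMSO, EGFR (0.23) and NGFR (0.75) for DTE minus DMSO, and ERBB3 (0.61) for DTE minus E. Under median subtraction they were ERBB3 (0.28) and SOX2 (0.21) for DT minus DMSO, NGFR (0.30) for DTE minus DMSO and ERBB3 (0.34) for DTE minus E. The ERBB3 interaction, near 0 throughout, was -0.06 to 0.11 over the fits without single arrays, with values of -0.011, -0.055, -0.039, -0.062 and -0.00875 in the 5 that changed sign. The number of the 5 genes called for DT minus DMSO was 3 to 5 without single arrays (3 without DT array 1 and without DMSO array 3), and for DTE minus E it was 4 to 5. Over all genes, quantile normalization gave 4233 calls in place of 10094 for DT minus DMSO, 6755 in place of 11479 for DTE minus DMSO, 3364 in place of 10696 for DTE minus E and 1821 in place of 1168 for the interaction. Median subtraction gave 6473 for DTE minus E and 1769 for the interaction. The causes were not tested. With the replicate number as a block, DT minus DMSO gave 4 of 5 genes called and 10217 calls over all genes; ERBB3 lost its call there (adjusted p = 0.0553) and for DTE minus E (adjusted p = 0.0648), and no other call among the 5 genes changed. Of 12 arrays, 7 correlated best with an array of their own number. With only the arrays compared, ERBB3 also lost both calls (adjusted p = 0.0617 and 0.0506). Fits without dim genes or with trend and robust variance changed no call among the 5 genes. Other handling of probe sets could not move their values, as each had 1 probe set, so it was no check on them. With 3 arrays per group and no detection calls, values below the middle of an array, such as MET with DT, have an unknown background share.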
